A study of Mus musculus with 9 samples.

Results

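The imprinted Dlk1-Dio3 region of mouse chromosome 12 encodes one of the largest groups of miRNAs in the mammalian genome, and 26 mature miRNAs from it were measured in epididymosomes, the small membrane vesicles that the epididymis releases into its lumen. The members were taken by name, from a list of 48 miR- numbers assigned to the locus, and the rule uses no measured value. Of these numbers 19 had a row in the table of 358 miRNAs, giving 26 mature names, and the miRNAs of the other 29 numbers were not analysed here. A miRNA is listed in the table where its mean reached 10 CPM (reads of a miRNA scaled to a common library total) in 1 segment or more. Epididymosomes had been purified by density gradient from luminal fluid of the caput, corpus and cauda, the proximal, middle and distal segments of the epididymis, of inbred male Swiss mice aged 8 weeks after perfusion of the vasculature. The labels give no treatment and no genetic modification. Small RNA was sequenced in 3 libraries per segment, 9 in all, and each library held RNA pooled from at least 9 animals, so that the spread between libraries is that between pools and not between single mice.

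In mammals the chromosome inherited from the father expresses the coding genes Dlk1, Rtl1 and Dio3, and the chromosome inherited from the mother expresses the non-coding transcripts Meg3, Rtl1 antisense, Rian and Mirg, from which the miRNAs are cut. The miRNAs are best known in brain, placenta and embryo, and several of them lie antisense to Rtl1 and are fully complementary to its transcript. Each hairpin can release a mature miRNA from its 5p and from its 3p arm, and bases 2 to 8 of a mature miRNA, the seed, do most of the pairing with target transcripts.

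All 26 names were matched to a mature sequence of RefSeq (GRCm38.p6), 13 from 5p and 13 from 3p arms of 19 hairpins, and 7 hairpins had both arms in the table. The hairpins lie on the plus strand of chromosome 12 between bases 109585789 and 109743795, a span of 158 kb. They fall into a proximal group of 10 miRNAs from 6 hairpins (Mir337 to Mir341), here called the Meg3 and Rtl1 antisense group, and a distal group of 16 miRNAs from 13 hairpins (Mir379 to Mir410), here called the Mirg group, with 97.5 kb between them. Of the 19 hairpins, 4 lie opposite an exon of Rtl1, 1 in an intron of Rian, 6 within Mirg and 8 in no long gene of the GENCODE annotation. The mature sequences of the miRNAs described in full are printed 5′ to 3′ with the seed in capitals, together with the other arm of miR-434, whose arms diverged, and the near-identical pair miR-300-3p and miR-381-3p.
miR-127-3p: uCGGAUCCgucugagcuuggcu
miR-434-3p: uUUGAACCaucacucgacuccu
miR-434-5p: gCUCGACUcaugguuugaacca
miR-136-5p: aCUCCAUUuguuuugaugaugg
miR-136-3p: aUCAUCGUcucaaaugagucuu
miR-379-5p: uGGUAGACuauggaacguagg
miR-411-5p: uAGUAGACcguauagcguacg
miR-299a-5p: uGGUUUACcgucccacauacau
miR-329-3p: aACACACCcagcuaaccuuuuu
miR-376b-3p: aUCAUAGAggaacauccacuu
miR-300-3p: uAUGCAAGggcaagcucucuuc
miR-381-3p: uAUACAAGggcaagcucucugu
miR-496a-3p: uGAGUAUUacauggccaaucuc
miR-541-5p: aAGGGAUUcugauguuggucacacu
miR-410-3p: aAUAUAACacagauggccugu
The 26 miRNAs had 26 different seeds. The closest pairs were miR-379-5p and miR-411-5p, with 14 of 21 bases identical and G2A as the 1 difference in the seed, and miR-300-3p and miR-381-3p, with 19 of 22 bases identical and G4A in the seed (positions are counted from 1 at the 5′ end, the first-named miRNA first). Among the miRNAs of the table that have a RefSeq sequence, miR-329-3p was the one member that shared its seed with a miRNA from elsewhere, miR-362-3p.

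The lower CPM values, 226 to 292 of them checked per library, stood for whole numbers of reads. The library totals found from that ranged from 1548581 to 11306605 per library, so that 10 CPM stood for 15.5 to 113 reads. Every member had at least 4 reads in every library. Because CPM ties each value to the whole library, the tests were also run with TMM factors (trimmed mean of M-values), which rescale libraries after setting aside the miRNAs of most extreme change and level. These factors were 0.753, 0.478 and 1.16 in the caput libraries, 1.08 to 1.14 in corpus and 1.08 to 1.29 in cauda libraries, and they moved the median log2 fold change of all miRNAs from caput to cauda from 0.81 to 0.13. miR-10a-5p and miR-10b-5p, which together took 33.2% to 71.3% of the reads, had their highest mean sum in the caput. Their sum in caput replicate 3 (504554 CPM) was below that in corpus replicates 1 and 2 (532024 and 513404 CPM). Caput replicate 3 stood apart from the other caput libraries for the Dlk1-Dio3 miRNAs: it was the highest caput library for 25 of the 26, at a median of 2.68 times the mean of replicates 1 and 2, against 1.79 times over all 358 miRNAs.

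Together the 26 miRNAs accounted for 0.205% to 0.746% of the reads. Their summed level was 2160, 2052 and 5626 CPM in caput replicates 1 to 3, 3302, 3457 and 4188 CPM in the corpus libraries and 5928, 6949 and 7457 CPM in the cauda libraries. The means were 3279 ± 2033, 3649 ± 473 and 6778 ± 779 CPM (SD, n = 3), and every cauda library lay above every other library. Under TMM scaling the sum was 2866, 4296 and 4832 in caput, 3057, 3029 and 3707 in corpus and 5472, 5656 and 5794 in cauda libraries. The cauda libraries stayed above the others. Caput replicate 3 lay above every corpus library under both scalings, and caput replicate 2 under TMM only.

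**Figure D1:**
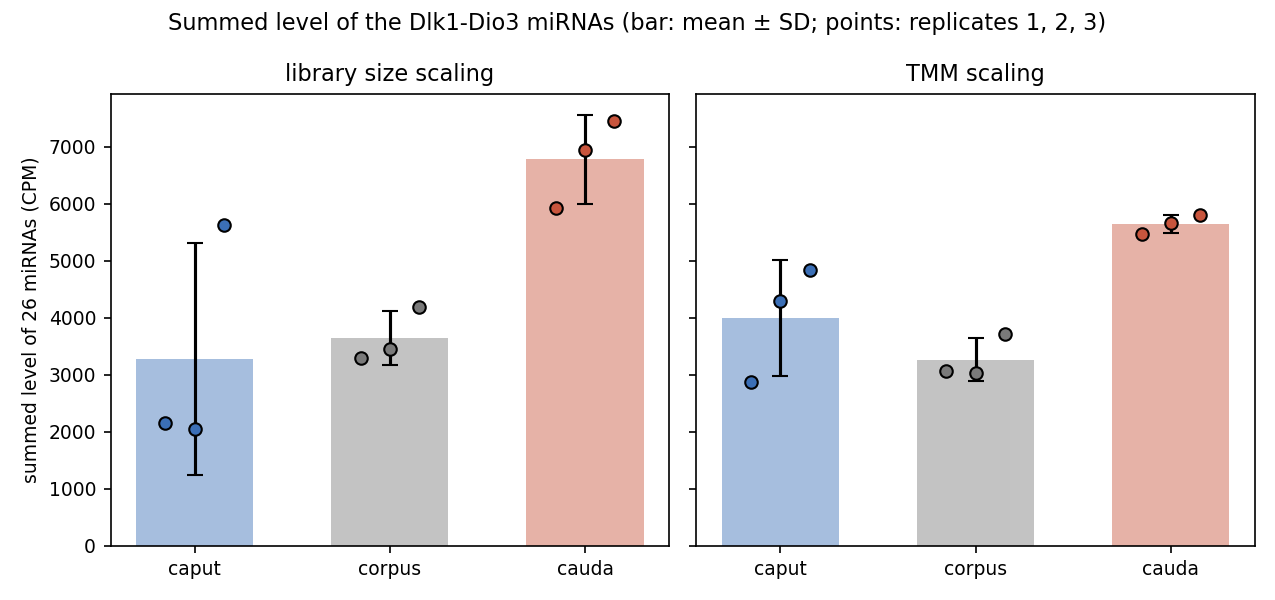
Summed level of the 26 Dlk1-Dio3 miRNAs in CPM (vertical axis) in each segment, with library size scaling on the left and TMM scaling on the right. Bars are means, error bars are SD of 3 libraries and points are replicates 1, 2 and 3. The cauda points, from 5928 to 7457 CPM by library size, lie above all others in both panels, and caput replicate 3 is the nearest to them.

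The locus was uneven in output. miR-127-3p, cut from a hairpin opposite Rtl1, gave 49.4% of the summed level with a mean of 2255 CPM over the 9 libraries and ranked the 32nd of 358 miRNAs. miR-411-5p of the Mirg group followed with 804 CPM and miR-434-3p with 523 CPM. A middle tier of 7 miRNAs, miR-136-3p, miR-136-5p, miR-541-5p, miR-410-3p, miR-434-5p, miR-300-3p and miR-381-3p, had means from 184 CPM down to 62.4 CPM. The remaining 16 miRNAs had means from 22.7 CPM (miR-409-3p) down to 5.43 CPM (miR-337-3p).

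At the detection level of a mean of 10 CPM, 12 members were detected in the caput, 15 in corpus and 26 in cauda libraries. The same counts over the table were 277, 300 and 322 of 358, or 77.4%, 83.8% and 89.9%. Of the 26 members, 11 reached 10 CPM only in the cauda mean. These entered the table through the segment in which they are highest, so their higher cauda level was a condition of being listed, and counts over all 26 are read with that in mind. The 12 members that reached 10 CPM in the caput mean carry no such condition, and they are given separately. By library size all 26 had their highest mean in the cauda, which the listing fixed for the 11, and 22 had means in the rising order caput, corpus, cauda. These 2 counts were not made over the table, in which 71.3% of miRNAs tested had a positive log2 fold change from caput to cauda. Under TMM scaling fewer members kept this rising order. miR-434-5p then had its highest mean in the corpus. In the Meg3 and Rtl1 antisense group miR-337-5p, miR-431-5p, miR-127-3p and miR-434-3p had a lower mean in the corpus than in the caput. In the Mirg group the same held for miR-411-5p, miR-299a-5p, miR-496a-3p, miR-541-5p, miR-409-5p, miR-409-3p and miR-369-5p.

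In the Meg3 and Rtl1 antisense group, miR-127-3p, which in placenta is known to direct cleavage of the Rtl1 transcript, stood at 1086, 1291 and 3119 CPM in caput, 1614, 1830 and 1885 CPM in corpus and 3267, 3099 and 3104 CPM in cauda libraries. Caput replicate 3 was within the range of the cauda libraries, and the other caput libraries were below the corpus. From caput to cauda its log2 fold change was 0.95 (SE 0.37), a 1.93-fold difference that passed the adjusted p (0.0427, limma) and not the required fold of 2. With TMM factors the same difference was 0.27 (SE 0.26).

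miR-434-3p, also antisense to Rtl1, was at 176, 112 and 436 CPM in caput, 252, 190 and 407 CPM in corpus and 726, 1091 and 1320 CPM in cauda libraries. All cauda libraries were above all others, and caput and corpus overlapped. It rose 4.94-fold from caput to cauda and 3.76-fold from corpus to cauda (limma adjusted p = 0.00124 and 0.0118). Both calls held under TMM scaling, with 3.09-fold and 3.51-fold. The call from corpus to cauda was lost without corpus replicate 2 (log2 fold change 1.66, adjusted p = 0.0693).

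The arms of miR-136, also from a hairpin opposite Rtl1, were close in level. miR-136-5p was at 56.3, 21.6 and 155 CPM in caput, 136.3, 103 and 240 CPM in corpus and 160, 253 and 328 CPM in cauda libraries. miR-136-3p was at 100, 54.6 and 199 CPM in caput, 159, 142 and 230 CPM in corpus and 204, 260 and 308 CPM in cauda libraries. For both arms each cauda library exceeded each caput library, and the corpus overlapped with the segments on either side of it. Both rose from caput to cauda by library size, miR-136-5p 4.05-fold (limma adjusted p = 0.00955) and miR-136-3p 2.45-fold (adjusted p = 0.0301). Under TMM scaling miR-136-5p kept the call (2.56-fold) and miR-136-3p did not (1.54-fold). Without caput replicate 2 the change of miR-136-5p was 1.33 on the log2 scale (adjusted p = 0.0545), and that of miR-136-3p was 0.84 (adjusted p = 0.0942). The call of miR-136-3p was also lost without caput replicate 1, cauda replicate 2 or cauda replicate 3, with adjusted p from 0.0649 to 0.0875.

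In the Mirg group the most abundant member, miR-411-5p, was at 445, 307 and 1026 CPM in caput, 674, 637 and 744 CPM in corpus and 820, 1347 and 1238 CPM in cauda libraries. Corpus and cauda did not overlap, while caput replicate 3 lay among the cauda libraries. Its 2.13-fold difference from caput to cauda passed narrowly (limma adjusted p = 0.0411). The call was lost without caput replicate 1 or 2, any 1 of the corpus libraries, cauda replicate 2 or cauda replicate 3, with log2 fold changes from 0.71 to 1.09, and under TMM scaling the difference was 1.34-fold.
miR-541-5p was at 75.5, 80.1 and 156 CPM in caput, 77.4, 103 and 77.5 CPM in corpus and 167, 206 and 163 CPM in cauda libraries. Among the 15 members tested from caput to corpus it was the one with a lower log2 level in the corpus by library size (−0.20, SE 0.41), and no comparison of it passed both thresholds by library size or with TMM factors.
miR-410-3p, from the last hairpin of the cluster in the table, was at 26.3, 33.8 and 94.2 CPM in caput, 84.8, 77.5 and 157 CPM in corpus and 140, 165 and 205 CPM in cauda libraries. Caput and cauda did not overlap. It rose 3.76-fold from caput to cauda (limma adjusted p = 0.00466) and 2.37-fold with TMM factors (adjusted p = 0.0142).

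Several members with steep rises were scarce. miR-496a-3p, from an intron of Mirg, was at 2.74, 1.69 and 2.84 CPM in caput, 3.39, 1.96 and 4.52 CPM in corpus and 23.5, 15.6 and 12.04 CPM in cauda libraries. It rose 5.15-fold from caput to cauda and 4.19-fold from corpus to cauda (limma adjusted p = 0.000755 and 0.00586), on the log2(CPM + 1) scale, on which the folds of scarce miRNAs come out too small. Caput replicates 1 and 3 were close. Both calls held with each library left out in turn and with TMM factors.

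miR-379-5p, from the first hairpin of the Mirg group and one known to be edited from adenosine to inosine, was at 4.69, 2.54 and 10.8 CPM in caput, 10.3, 9.40 and 11.0 CPM in corpus and 31.5, 26.1 and 21.0 CPM in cauda libraries. It rose 4.34-fold from caput to cauda (limma adjusted p = 0.00195).
miR-329-3p was at 1.77, 2.30 and 3.31 CPM in caput, 3.72, 3.13 and 5.17 CPM in corpus and 16.5, 11.0 and 11.7 CPM in cauda libraries. It rose 4.07-fold from caput to cauda (limma adjusted p = 0.00174) and 2.81-fold from corpus to cauda (adjusted p = 0.0318).
miR-376b-3p, of another family known for edited precursors, was at 3.18, 2.05 and 6.15 CPM in caput, 5.82, 5.48 and 4.52 CPM in corpus and 11.99, 18.8 and 17.6 CPM in cauda libraries. It rose 3.74-fold from caput to cauda (limma adjusted p = 0.00329) and 2.70-fold from corpus to cauda (adjusted p = 0.0395).
For these 3 miRNAs the cauda libraries lay above all others, and their calls from caput to cauda held with each library left out and under TMM scaling. The calls from corpus to cauda were less stable. That of miR-329-3p was lost without caput replicate 1, corpus replicate 1 or 2 or cauda replicate 1 or 2 (adjusted p from 0.0518 to 0.140), and that of miR-376b-3p held only without caput replicate 2 or 3 (otherwise 0.0599 to 0.133).
miR-299a-5p was at 2.65, 2.54 and 4.85 CPM in caput, 3.55, 1.57 and 4.52 CPM in corpus and 16.99, 6.87 and 11.5 CPM in cauda libraries. It rose 2.86-fold from caput and 3.02-fold from corpus (limma adjusted p = 0.0190 and 0.0352), and under TMM scaling the first of these was 1.95-fold and not called. It was also not called from caput without caput replicate 1 or 2 (adjusted p = 0.0720 and 0.0539), and from corpus without corpus replicate 1 or 2 or cauda replicate 3 (0.0807, 0.181 and 0.0523). Without cauda replicate 1 its means were under 10 CPM and it was not tested.

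**Figure D2:**
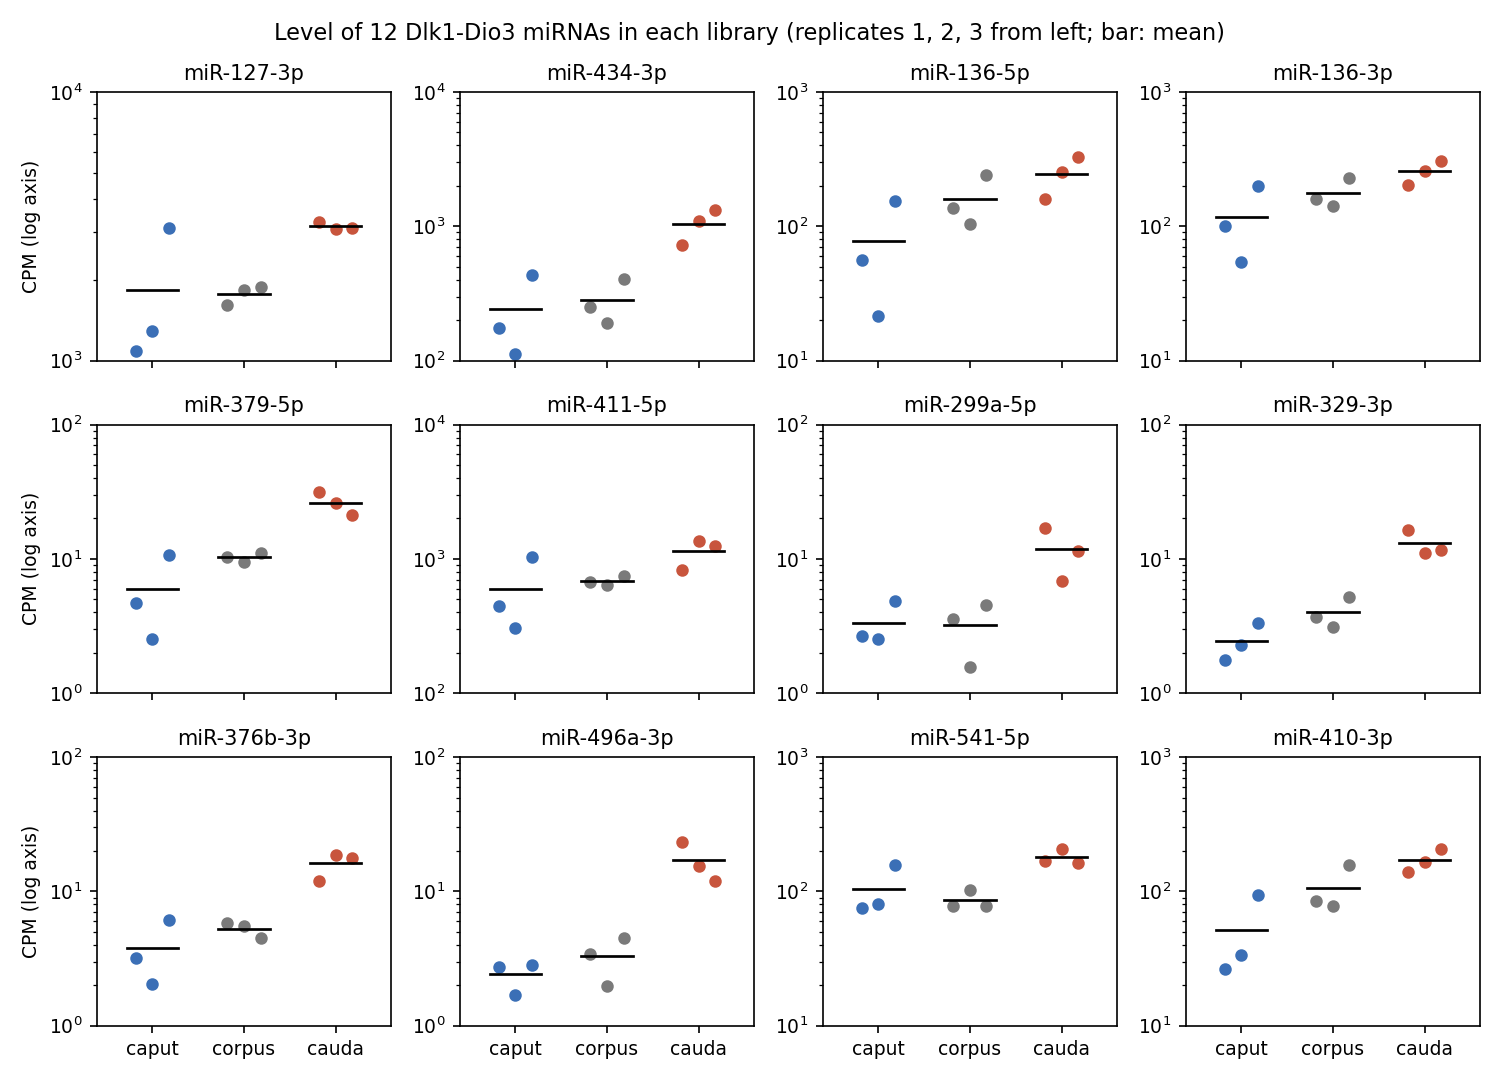
Level in CPM (vertical axes, logarithmic) of 12 Dlk1-Dio3 miRNAs in the caput, corpus and cauda (horizontal axes), in order along the locus. Points are replicates 1, 2 and 3 from left to right and bars are means of 3 libraries. The cauda points lie above both other segments for miR-434-3p, miR-379-5p, miR-299a-5p, miR-329-3p, miR-376b-3p, miR-496a-3p and, by a narrow margin, miR-541-5p. For miR-127-3p and miR-411-5p caput replicate 3 reaches the cauda range.

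Over all members, no difference from caput to corpus passed the test. The p-values weigh each difference against the spread between these pools, estimated from all 9 libraries. Of the 15 members tested 0 were called in either direction at an adjusted p under 0.05 and a fold of at least 2, although 19% of the 321 miRNAs tested were called higher and 3.43% lower. Libraries did not overlap, with corpus higher, for 0 of the 15, against 29.3% of miRNAs tested. Among the 12 members at 10 CPM in the caput mean 0 were called, beside 14.4% of such miRNAs. At an unadjusted p under 0.05 the count was 2 of 15 with limma on log2(CPM + 1), beside 37.1% of miRNAs tested. With limma-voom it was 2 of 15, beside 35.8%, and 0 were called, beside 19.6% of miRNAs called higher. A positive value was found for 14 of the 15 and for 69.8% of miRNAs tested. The median log2 fold change was 0.65, beside 0.47 over all miRNAs tested, and the largest were those of miR-136-5p (1.36, SE 0.59) and miR-410-3p (1.19, SE 0.49). Without caput replicate 3, 7 of the 15 members were called higher (46.7%), beside 31.4% of the miRNAs then tested. Under TMM scaling 0 were called, beside 13.1% called higher and 15.3% lower, the medians were 0.10 and −0.09, and the sign turned for miR-127-3p (−0.46), miR-434-3p (−0.18), miR-411-5p (−0.18) and miR-409-3p (−0.25).

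From corpus to cauda 5 of the 26 members were called higher (19.2%) and 0 lower, beside 14% called higher and 4.97% called lower of the miRNAs tested. They were miR-434-3p, miR-299a-5p, miR-329-3p, miR-376b-3p and miR-496a-3p. Among the 15 members at 10 CPM in the corpus mean, which were not listed through the cauda, 1 was called, beside 10% of the 300 such miRNAs. Their median log2 fold change was 0.73 beside 0.09, 14 were positive beside 54% of such miRNAs, and for 8 the cauda and corpus libraries did not overlap, beside 24.7%. Over all 26, which include the 11 listed through the cauda, the median was 0.95 beside 0.18, 25 were positive beside 59.6%, and 16 did not overlap beside 30.1%. miR-434-5p was the exception in sign (−0.27, SE 0.55). Under TMM scaling the 5 calls were kept, miR-431-5p and miR-379-5p were added (beside 16.4% called higher and 9.94% lower), and the medians were 0.84 and 0.08. The count by library size was sensitive to single libraries: it was 3, 8 and 9 without caput replicates 1, 2 and 3, 2 and 1 without corpus replicates 1 and 2, and 2 and 3 without cauda replicates 1 and 2. The share of all miRNAs called higher ranged from 7.35% to 17.3% over these settings.

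From caput to cauda 19 of the 26 members were called higher (73.1%) and 0 lower, beside 38.7% called higher and 10.3% called lower of 349 miRNAs tested. The calls comprised 7 of 10 miRNAs of the Meg3 and Rtl1 antisense group and 12 of 16 of the Mirg group, with the same median log2 fold change of 1.40 in both. The 7 that were not called were miR-337-5p, miR-127-3p, miR-434-5p, miR-300-3p, miR-381-3p, miR-134-5p and miR-541-5p, all with positive values from 0.33 to 1.21. All 26 were above 0, as were 71.3% of miRNAs tested. Among the 12 members at 10 CPM in the caput mean, 7 were called (58.3%), beside 26.7% of the 277 such miRNAs, and their median was 1.25 beside 0.42. Caput and cauda libraries did not overlap for 7 of these 12, beside 31.8% of such miRNAs, and for 18 of all 26 members, beside 42.4% of all miRNAs tested.
Under TMM scaling the count fell to 9 of 26 (34.6%), beside 24.9% called higher and 20.3% lower, and all 9 were among the 19: miR-337-3p, miR-127-5p, miR-434-3p, miR-136-5p, miR-379-5p, miR-329-3p, miR-376b-3p, miR-496a-3p and miR-410-3p. Of the 12 members at 10 CPM in the caput mean 3 were then called (25%), beside 15.5%, and libraries did not overlap for 15 of the 26, against 32.1% of miRNAs tested. The members shifted with the table: the median of the 26 moved from 1.40 to 0.85 while that of the table moved from 0.81 to 0.13. Measured from the table median, miR-496a-3p was 1.56 above it by library size and 1.69 above it by TMM, and miR-127-3p was 0.14 above it in both. miR-434-5p changed sign between the scalings (0.33 and −0.33, with SE 0.55 and 0.46). The count by library size was 10, 9 and 25 without caput replicates 1, 2 and 3 and 11 without cauda replicate 2, beside 31.1%, 28.3%, 52.2% and 29.9% of all miRNAs tested.

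**Figure D3:**
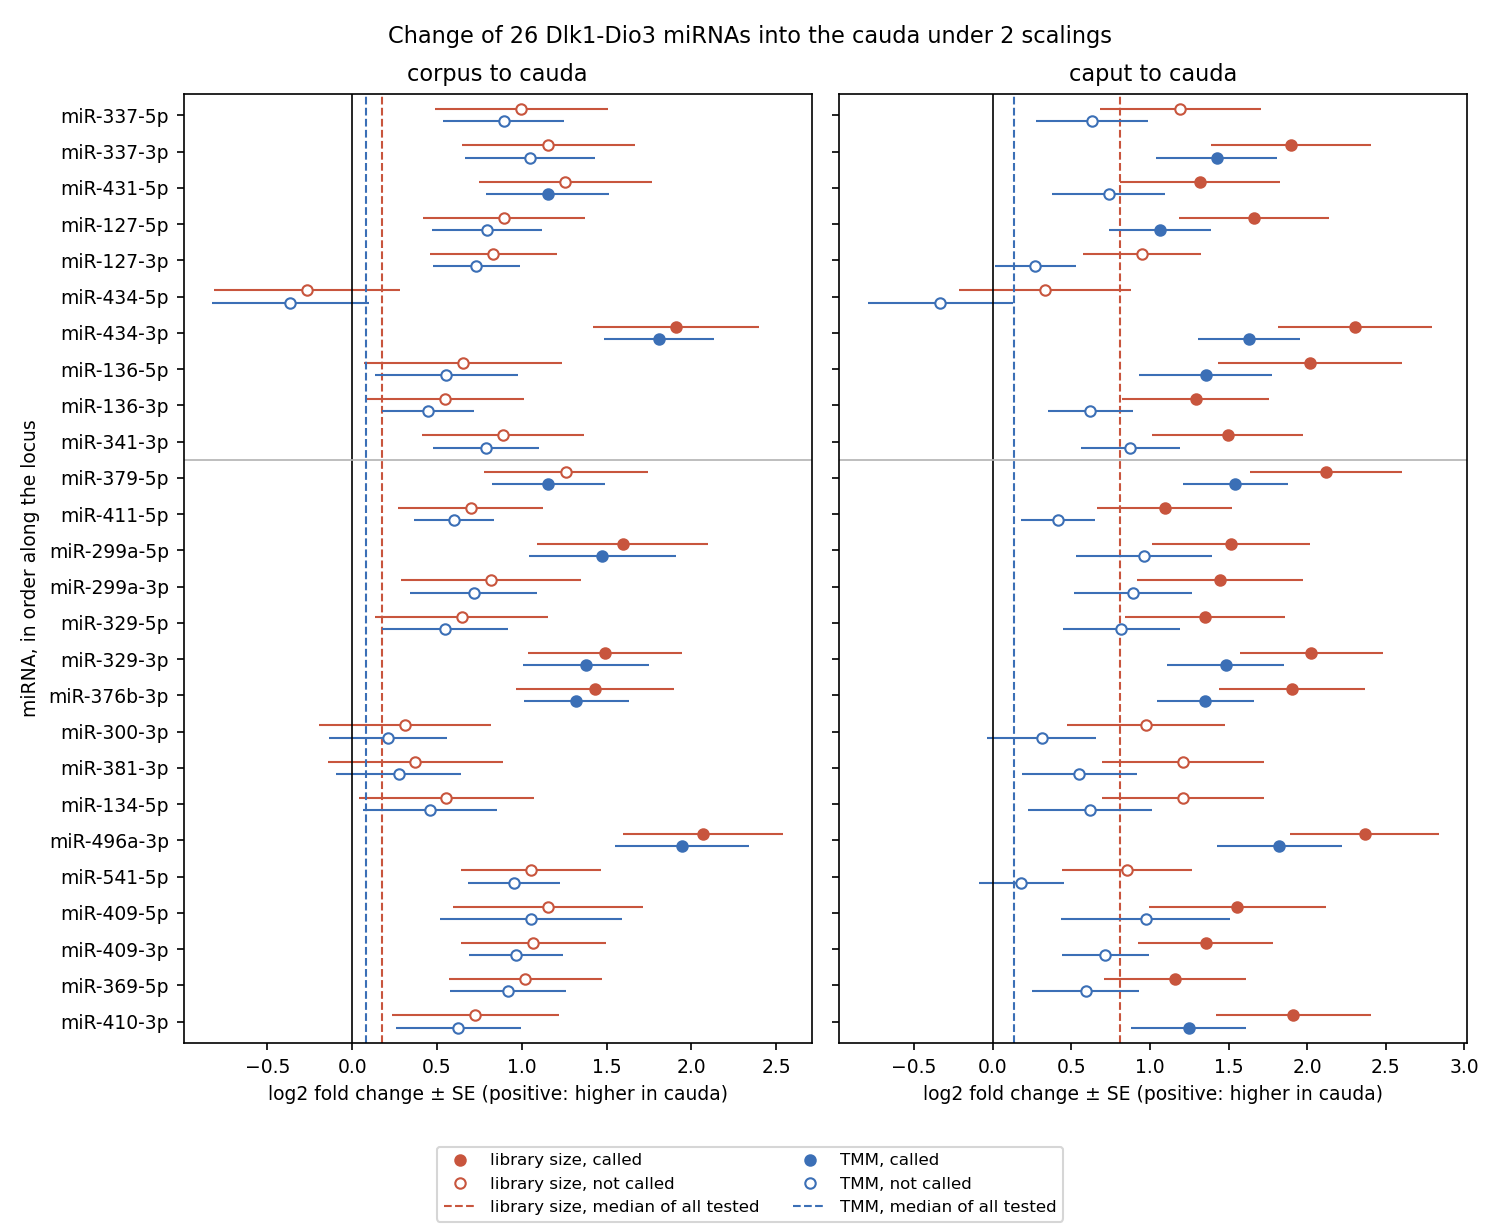
Log2 fold change (horizontal axes, positive where higher in the cauda) of the 26 miRNAs in order along the locus (vertical axis), from corpus to cauda on the left and from caput to cauda on the right. Points are estimates with bars of 1 SE, filled where called; red is library size scaling, blue is TMM scaling, dashed lines are the medians of all miRNAs tested, and the grey line parts the Meg3 and Rtl1 antisense group above from the Mirg group below. TMM scaling shifts the right panel left, from a table median of 0.81 to 0.13, and leaves the left panel nearly in place.

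The ratio of the arms of a hairpin is free of library scaling, since both arms are read in the same library. Of 7 hairpins with both arms in the table, 4 had both at a mean of at least 10 CPM, and miR-434 was the one whose ratio changed. Its hairpin is shown from chr12:109594506-109594599 (plus strand, GRCm38.p6), opposite an exon of Rtl1, with the 5p and then the 3p arm in capitals.
Mir434: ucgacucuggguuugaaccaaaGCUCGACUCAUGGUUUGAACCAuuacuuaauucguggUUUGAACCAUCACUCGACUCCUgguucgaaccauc
The 3p arm exceeded the 5p arm 3.07, 2.17 and 3.49 times in the caput libraries, 2.84, 1.56 and 3.39 times in the corpus libraries and 13.3, 19.4 and 5.47 times in the cauda libraries. All cauda libraries lay beyond all others. The 5p to 3p ratio fell by 1.97 on the log2 scale from caput to cauda (SE 0.47, limma adjusted p = 0.0260) and by 2.18 from corpus to cauda (SE 0.47, adjusted p = 0.0124). It did not pass the test from caput to corpus (0.21, adjusted p = 0.891). Of all 64 hairpins tested, 15.6% were called from caput to cauda, 6.25% from corpus to cauda and 1.56% from caput to corpus. Leaving out 1 library kept the direction in both called comparisons, with changes from −2.49 to −1.58 from caput to cauda and from −2.70 to −1.79 from corpus to cauda. The call from caput to cauda was lost without caput replicate 1, 2 or 3 or cauda replicate 1 or 2 (adjusted p from 0.0567 to 0.0806). That from corpus to cauda was lost without corpus replicate 1 or 2 or cauda replicate 1 or 2 (adjusted p from 0.0543 to 0.0780).

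Behind this ratio, miR-434-5p was at 57.2, 51.5 and 125 CPM in caput, 89.0, 122 and 120 CPM in corpus and 54.5, 56.3 and 241 CPM in cauda libraries, with at least 109 reads in each cauda library. Cauda replicate 3 held more than 4 times the 5p level of the other cauda libraries and had the smallest 3p excess of the 3. The 5p arm thus spanned the range of the other segments in the cauda, whereas the 3p arm was above the other segments in every cauda library.
No other hairpin of the locus tested passed. miR-127 was almost wholly read from its 3p arm, which exceeded the 5p arm 267 ± 61.9 times in caput, 159 ± 41.7 times in corpus and 143 ± 19.1 times in cauda libraries (SD, n = 3). Caput and cauda libraries did not overlap, and the change in its ratio from caput to cauda was 0.79 (SE 0.33, adjusted p = 0.115). miR-136 was the most balanced, with a 5p to 3p ratio of 0.578 ± 0.191, 0.876 ± 0.157 and 0.941 ± 0.143 (SD, n = 3). Its change was 0.74 (SE 0.34, adjusted p = 0.147). Its caput and cauda libraries were also apart, narrowly, with 0.777 the highest in caput and 0.784 the lowest in cauda. The share of all hairpins tested whose libraries did not overlap was not computed. miR-409 had ratios of 0.379 ± 0.147, 0.436 ± 0.216 and 0.559 ± 0.427 (SD, n = 3), with cauda libraries from 0.186 to 1.03 and a change of 0.25 (SE 0.55, adjusted p = 0.800).

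**Figure D4:**
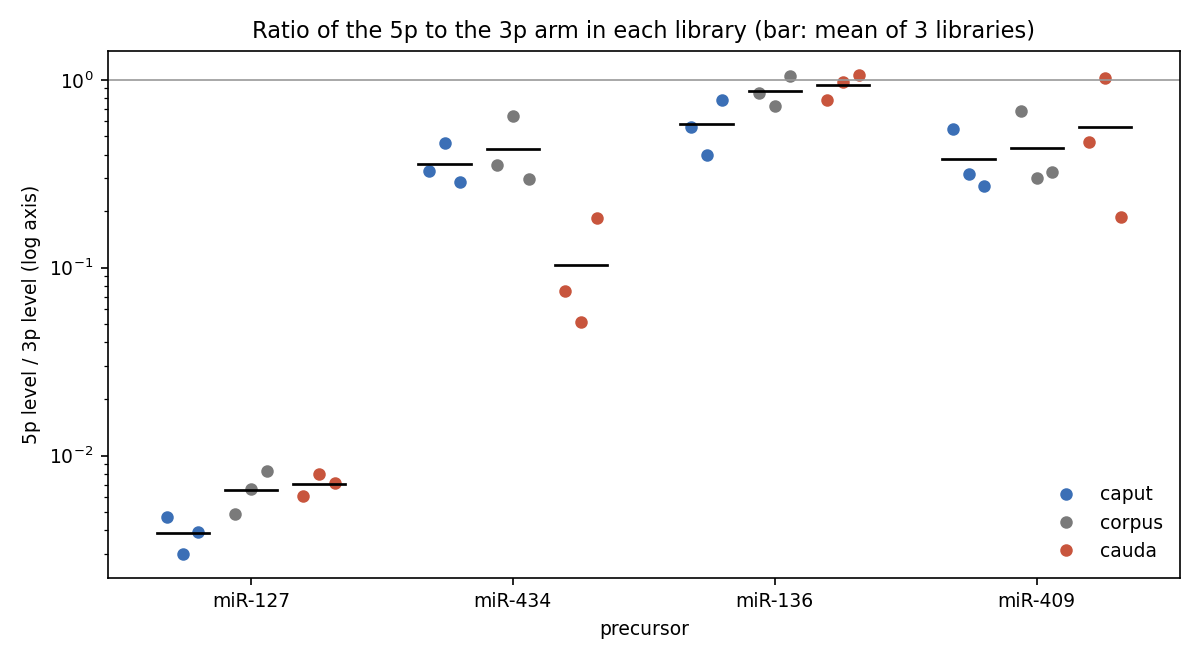
Ratio of the 5p to the 3p level (vertical axis, logarithmic) of the hairpins of miR-127, miR-434, miR-136 and miR-409 (horizontal axis) in each library. Points are libraries coloured by segment, bars are means of 3 libraries and the grey line marks equal arms. The cauda points of miR-434, at 0.0750, 0.0516 and 0.183, lie below all its caput and corpus points, and no other hairpin passed the test.

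miRNAs from outside the cluster gave a local comparison. miR-342-3p and miR-345-5p are encoded on the same chromosome, proximal to Dlk1 and not within the imprinted cluster. miR-342-3p was at 29.9, 19.2 and 27.9 CPM in caput, 52.3, 21.5 and 53.0 CPM in corpus and 93.9, 92.0 and 120 CPM in cauda libraries, and it rose from caput to cauda under both scalings (log2 fold change 1.96 by library size, limma adjusted p = 0.00195, and 0.0137 by TMM). miR-345-5p rose by library size (1.25, SE 0.42) and was not called with TMM factors (0.58, adjusted p = 0.0959). Its other arm, miR-345-3p, was not called by library size (0.90, adjusted p = 0.111) or by TMM (0.25, adjusted p = 0.494). miR-362-3p, which shares the seed of miR-329-3p, rose from caput to cauda under both scalings (2.35 and 1.74, adjusted p = 0.00163 and 0.00256). Of miRNAs from other imprinted genes, miR-335-3p and miR-335-5p of Mest were called higher in the cauda by library size (3.22 and 1.89), the first of them also by TMM. miR-296-5p and miR-298-5p of the Gnas region were not called by library size (−1.08 and −1.27) and were called lower by TMM (−1.65 and −1.85). In the Sfmbt2 cluster, also imprinted, 13 of 18 miRNAs were called lower and 1 higher from caput to cauda by library size. Of all miRNAs tested, 10.3% were called lower and 38.7% higher. With TMM factors 17 of the 18 were called lower and 0 higher, beside 20.3% and 24.9% of all miRNAs tested.

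miRNAs that mark other cell types also differed along the tract. Of the list for mesenchyme and fibroblasts (miR-199a, miR-199b and miR-214, of which the 3p arms of the first pair cannot be told apart by sequence), 3 of 6 were called higher from caput to cauda and 2 of 6 from caput to corpus (0 from corpus to cauda), with summed levels from 1595 to 4950 CPM in caput, 5546 to 8300 CPM in corpus and 7944 to 12182 CPM in cauda libraries. Caput replicate 3 was again the highest caput library. For smooth muscle, both arms of miR-143 were called higher. Their sums ranged from 49781 to 88090 CPM in caput, 87940 to 120679 CPM in corpus and 287108 to 352157 CPM in cauda libraries. miR-145, the other name of this list, had no row in the table. Striated muscle (5 of 5 called higher), red blood cells (4 of 4), leukocytes (3 of 5), neurons (2 of 3, with 1 lower) and germ cells (18 of 18) also had miRNAs that rose, whereas 0 of 2 endothelial miRNAs passed and 1 of 10 epithelial miRNAs was called in each direction. The share of all miRNAs called higher was 38.7%. A caput or corpus mean of 10 CPM was reached by 1 of 5 for striated muscle and 2 of 4 for red blood cells. It was reached by 4 of 5 for leukocytes, 2 of 3 for neurons and 14 of 18 for germ cells. The others were listed through the cauda, so their higher cauda level was a condition of being listed. In the germ cell list miR-465a-3p and miR-465b-3p had identical fits (log2 fold change 2.25) and were counted separately. With TMM factors (24.9% of all miRNAs) the counts higher fell to 1 of 2 for smooth muscle, 2 of 4 for red blood cells, 15 of 18 for germ cells and 0 of 10 for epithelium, while those of the other lists stayed as they were. The mesenchyme count from caput to corpus was then 0 of 6. The part of such cells in the levels of the Dlk1-Dio3 miRNAs was not tested, and in a vesicle preparation more vesicles of one origin and more of a miRNA per vesicle cannot be told apart.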

How the data were processed

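Epididymosome small RNA was sequenced by the authors on an Illumina HiSeq-2000 (submitters' processing notes: CASAVA 1.8.2, Bowtie 1.1.1 and limma), and segments and replicates were taken from the sample labels. The authors deposited CPM values, read counts on known miRNAs normalised to library size; the genome build and miRNA release are not given in the sources used here. From these, log2(CPM + 1) was fitted with limma 3.58 (R 4.3) on all 9 libraries with segment as the only factor, over the whole table. Tests covered miRNAs whose mean reached 10 CPM in either segment compared, with Benjamini-Hochberg adjustment over all of them, and calls needed an adjusted p under 0.05 and a fold of at least 2. Arm ratios were fitted with limma on log2((5p + 0.5)/(3p + 0.5)) for 64 of the 79 hairpins with both arms. Whole reads per value (100% of the 226 to 292 lower values checked per library, within a tolerance of 0.02 reads) gave the depth. The most abundant miRNAs were not part of that check. A planned test on raw counts was not run, and limma-voom on the reads taken from the CPM steps was added in its place. Floors and read numbers cover counting error only, and shallow libraries limit members near 10 CPM.

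The methods were tested on simulated data. Sequences and hairpin positions are those of RefSeq and gene models those of GENCODE, both for GRCm38. The members, lists and alternatives were chosen with earlier results of these data known. Levels in every library are given for the 6 members of highest mean, those called from caput to corpus or corpus to cauda, and the 6 of largest fold among those called from caput to cauda; miR-434-5p was added for its arm ratio. The alternatives were other scalings, pseudocounts, filters, limma-voom, a replicate block and each library left out. Python 3.11, numpy 2.4, pandas 2.3 and matplotlib 3.10 were used.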

Additional observations from a re-analysis of the deposited data

How the results depend on the processing

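The number of members called higher from caput to cauda, 19 of 26 by library size, was 9 with TMM factors and 9 with median-of-ratios factors. It was 10 with a filter of 20 CPM, under which 15 members were tested. The shares of all miRNAs called higher were 38.7%, 24.9%, 24.1% and 38.1%. With libraries left out the count ranged from 9 to 25, beside 28.3% to 52.2% of all miRNAs. With TMM factors as well it ranged from 7 to 11 (8 without caput replicate 2 or cauda replicate 2), beside 21.8% to 25.5%. From corpus to cauda the count of 5 (beside 14%) was 1 of 15 with a filter of 20 CPM (beside 13.7%). It was 9 with the 6 libraries of the comparison alone (beside 17.3%) and 2 with limma-voom on reads taken from the CPM steps (beside 9.36%). It ranged from 1 to 9 with libraries left out, beside 7.35% to 17.3%. With TMM factors as well it ranged from 4 to 11 (8 without corpus replicate 3), beside 11.5% to 17% called higher. The 11 without cauda replicate 3 included miR-434-5p as lower. From caput to corpus the count ranged from 0 to 7 with libraries left out, beside 12.7% to 31.4%. limma-voom and the combinations with TMM factors were chosen after seeing the data.

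Whether libraries of the same replicate number came from the same animals is not stated in the sources used here, and the values do not settle it. The correlation of deviations from the segment means ranged from −0.211 to 0.411 over 9 same-numbered pairs, with 6 above 0.1. Over 18 other pairs it ranged from −0.447 to 0.179, with 4 above 0.1. With the replicate block 2 of 15 members were called from caput to corpus (miR-136-5p and miR-410-3p), 5 of 26 from corpus to cauda and 22 of 26 from caput to cauda. The shares of all miRNAs called higher with the block were 21.8%, 15.2% and 41.3%.

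The number of hairpins of the locus with a changed arm ratio ranged from 0 to 1 with libraries left out, both from corpus to cauda and from caput to cauda, and the change of miR-434 from caput to corpus ranged from −0.12 without corpus replicate 2, where it turned, to 0.44. Members detected were 19 in the caput at 5 CPM and 15 in the cauda at 20 CPM, beside 89.4% and 72.6% of all 358 miRNAs. The summed level was 5640 CPM in the cauda with TMM factors. Relative to libraries without miR-10a-5p, miR-10b-5p and miR-143-3p it was 9758, 9521 and 19444 CPM in caput, corpus and cauda, and without miR-127-3p it was 1872 CPM in the corpus and 3621 CPM in the cauda. For the 15 called changes of miRNAs with levels given in every library, 393 values were computed under an alternative: 318 kept direction and call, 75 kept the direction and lost the call, and 0 turned. These changes were chosen for being called. The filters, the replicate block, the 6 libraries alone and leaving out a library of the third segment cannot move a fold change. The 0 that turned is therefore no test of direction. Differences that were not called did turn with TMM factors, for miR-127-3p, miR-434-3p, miR-411-5p and miR-409-3p from caput to corpus and miR-434-5p from caput to cauda. The planned edgeR tests on raw counts were not run. Members near 10 CPM rest on as few as 4 reads in a library, which limits their fold changes.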
